A study of Homo sapiens with 12 samples.

Results

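The 9 genes HLA-B, HLA-C, B2M, TAP1, TAPBP, NLRC5, HLA-DMA, HLA-DMB and CD74 encode parts of the MHC class I and class II antigen presentation pathways, and their mRNA was followed in 12 RNA-seq libraries of HT29 cells. HT29 is an established human line grown from a colorectal adenocarcinoma. A low dose of 20 µg/mL, a medium dose of 100 µg/mL and a high dose of 500 µg/mL of a water extract of ACD (Aconitum carmichaeli Debeaux) were given for 24 h and compared with cells given the vehicle alone (PBS, 2% DMSO), with 3 libraries in each of these 4 groups. The comparison asked which transcripts of an intestinal cell line responded to the extract. The titles and the treatment field name ACD, whereas a treatment note of the same libraries describes Poria cocos. The groups used here follow the titles. Nothing in the labels says that the 3 libraries of a group came from separate cultures, so their spread may be technical. The 9 symbols matched 9 of the 60675 gene IDs of the count table, and all 9 passed the filter on low counts that left 15374 genes. They were selected on their behaviour in these same contrasts, with earlier results of the data known. Their values, and whether they met the thresholds applied to all genes, are therefore given as a description that supports nothing, and no p-value is given for them. P-values are given for the other genes of the pathway, whose list was also made with earlier results of the data known.

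MHC class I molecules show peptides from inside the cell to CD8+ T cells. The proteasome makes the peptides, the TAP transporter carries them into the endoplasmic reticulum, and tapasin (TAPBP) helps to load them onto a heavy chain, such as HLA-B or HLA-C, that is bound to beta-2-microglobulin (B2M). MHC class II molecules show peptides from endosomes to CD4+ T cells. Their groove is first filled by the invariant chain CD74, whose last fragment is exchanged for a peptide by the HLA-DM dimer of HLA-DMA and HLA-DMB. The class I genes are switched on by NLRC5 and the class II genes by CIITA, both through the same promoter-bound complex, and interferon gamma induces both. Colon epithelium normally has class I on its surface and gains class II mainly in inflammation.

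Of the 9 genes, 6 lie within 2.05 Mb of chromosome 6 (GRCh38, GENCODE release 44). These are HLA-C at chr6:31268749-31272130, HLA-B at chr6:31353872-31367067, TAP1 at chr6:32845209-32853816, HLA-DMB at chr6:32934629-32941028, HLA-DMA at chr6:32948613-32969094 and TAPBP at chr6:33299694-33314284, all on the minus strand. The other three are B2M at chr15:44711358-44718851, NLRC5 at chr16:56989485-57083531 and CD74 at chr5:150401637-150412969 on the minus strand. Taken as whole GENCODE gene spans, HLA-DMA overlaps BRD2 on the opposite strand, which had a mean of 287 CPM (counts per unit of library size, scaled with TMM factors). TAP1 overlaps PSMB9 and PSMB8-AS1 on the opposite strand, at 0.935 and 0.553 CPM. The kit keeps the strand, but the strand setting of the counting is not given in the sources used here, so reads of such pairs cannot be told apart with certainty.

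Both HLA-DM genes are shown with the 250 bases before their start sites, because their mRNAs, whose proteins work as a dimer, did not keep one ratio in these libraries. The sequences are from RefSeq (GRCh38.p14), HLA-DMB at chr6:32941029-32941278 and HLA-DMA at chr6:32953098-32953347, both on the minus strand and written 5′ to 3′. The RefSeq start site of HLA-DMA lies inside the GENCODE gene span given above, which reaches further upstream. Capitals mark ATTGG, or its reverse complement CCAAT, the core of the Y box bound by NF-Y, and the run TNACTGATG, which was chosen after both sequences had been seen.
HLA-DMB: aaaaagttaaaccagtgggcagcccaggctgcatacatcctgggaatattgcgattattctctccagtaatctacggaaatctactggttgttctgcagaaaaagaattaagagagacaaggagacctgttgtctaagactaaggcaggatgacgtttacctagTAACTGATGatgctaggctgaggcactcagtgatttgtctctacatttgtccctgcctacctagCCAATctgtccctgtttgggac
HLA-DMA: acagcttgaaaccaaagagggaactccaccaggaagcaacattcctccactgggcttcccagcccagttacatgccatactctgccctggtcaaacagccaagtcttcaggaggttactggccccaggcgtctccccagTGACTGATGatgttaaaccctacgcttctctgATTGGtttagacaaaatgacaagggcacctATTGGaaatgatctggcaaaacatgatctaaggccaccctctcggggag
The run TNACTGATG begins 86 bases before the start site in HLA-DMB and 111 bases before it in HLA-DMA, and 0.612% of 35116 RefSeq promoters of this length hold it on either strand. The longest stretch that both share, ACTGATGATG, lies within and just after this run and is found in 0.0712% of the promoters. A Y box core on either strand was found in 7 of the 8 members with a promoter entry (TAP1 in 1 of its 2 entries), the exception being TAPBP, and in 32% of all promoters. The interferon-stimulated element core (GAAA, any pair of bases, GAAA), searched on both strands, was found in TAP1, TAPBP and B2M and in 3.02% of all promoters. These matches describe the letters only.

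The libraries held 15941255 to 33866644 expected counts. Of 9 markers of intestinal epithelium, all were counted in every library, with KRT8, a keratin of simple epithelia, the highest at a mean of 6380 CPM, and their summed level was 11000 to 13100 CPM. Most of this sum came from KRT8 and from KRT18 at 3510 CPM, whereas CDX1 and CDX2 were the lowest at 1.25 and 5.86 CPM. Of 12 leukocyte markers, MS4A1 and SPI1 were at 0 in every library, PTPRC had 4 counts in all, and the sum of the list was 4.43 to 6.44 CPM, most of it from CD14 at 3.23 and ITGAM at 1.84 CPM. High-dose replicate 2 had the lowest total and stood apart with transcript length. Against the mean of replicates 1 and 3, its median log2 difference was 0.57 over 720 genes with a transcript of at most 1000 bases, 0.36 over 1909 genes of up to 2000 bases, 0.06 over 3777 genes of up to 4000 bases and -0.26 over 4180 longer genes. B2M, at 943 bases, stood 0.64 higher in it on the log2 scale, HLA-B 0.70 and HLA-DMA 0.68 higher, TAPBP -0.40 and NLRC5, at 6781 bases, -1.62. The other members differed less, with HLA-C at 0.16, CD74 at 0.07, HLA-DMB at 0.03 and TAP1 at 0.00. HLA-B and HLA-DMA lay above the upper quartile of their length class (0.57), and HLA-DMB and CD74 just below the lower quartile of the same class (0.08). TAPBP and NLRC5 lay below the lower quartiles of theirs (-0.19 and -0.56), and NLRC5 had only 5 counts in this library. High-dose values of the members that differ in this library are given with and without it.

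**Figure D1:**
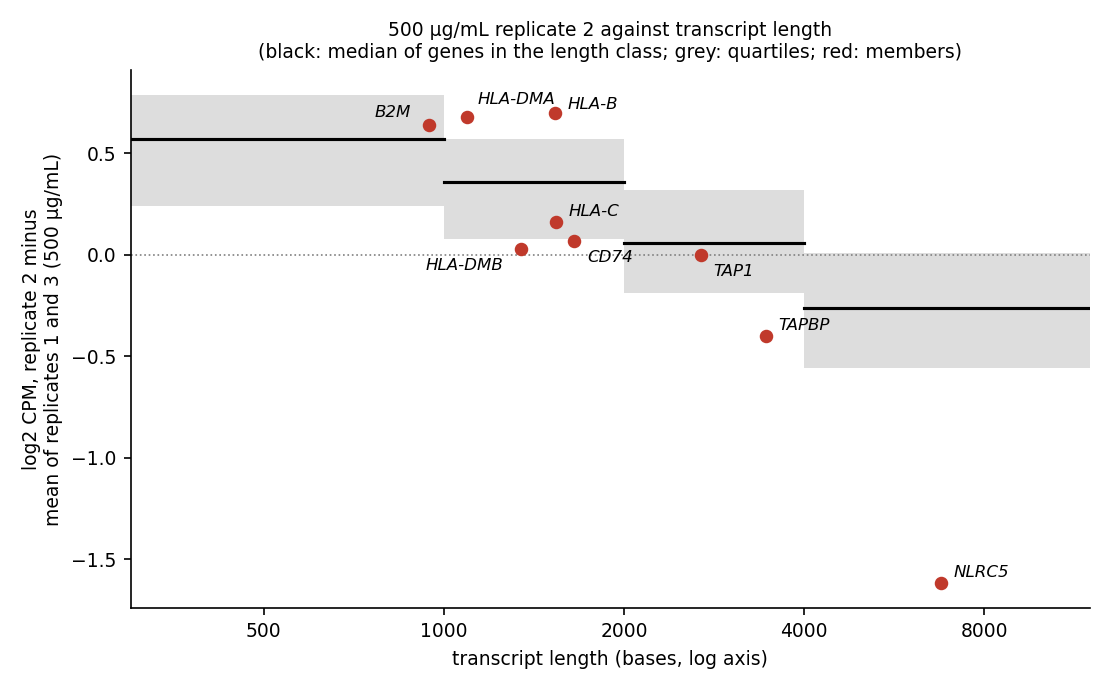
Log2 CPM of high-dose replicate 2 minus the mean of high-dose replicates 1 and 3 (vertical axis) against transcript length in bases (log axis). Black lines are the medians and grey bands the quartiles of the genes in each length class, from 0.57 at up to 1000 bases to -0.26 above 4000 bases, and red points are the 9 members, from 0.70 for HLA-B to -1.62 for NLRC5.

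In vehicle cells the members covered a wide range of levels. In bulk RNA, fewer cells with a transcript and less of it per cell cannot be told apart. Per kb of transcript, B2M was the highest at 380.0 ± 23.7 CPM per kb (SD, n = 3), followed by TAPBP at 54.8 ± 0.238 and HLA-C at 31.9 ± 5.45. TAP1 at 3.66 ± 0.0382, HLA-DMA at 3.19 ± 0.0640, CD74 at 2.91 ± 0.365 and HLA-B at 2.68 ± 1.00 CPM per kb came next. HLA-DMB, at 0.969 ± 0.177, and NLRC5, at 0.117 ± 0.0193 CPM per kb, were the lowest. The vehicle libraries of neighbours in this order overlapped for HLA-DMA and CD74 and for CD74 and HLA-B, and for no other neighbours. B2M, TAPBP and HLA-C thus stood well above the other members, and the class II loading genes were all low. The class II chains that CD74 and HLA-DM serve were not detected at this depth. Of 9 such genes (HLA-DRA, HLA-DRB1, HLA-DRB5, HLA-DPA1, HLA-DPB1, HLA-DQA1, HLA-DQB1, HLA-DQA2 and HLA-DQB2), 8 had no count in any library and HLA-DQB1 had 1 count in 1 library. A count of 0 allows up to 3 counts, which is 0.0909 to 0.212 CPM in these libraries (counting error only). HLA-DOA and HLA-DOB, which hold HLA-DM back, had 72.0 and 58.17 counts over the 12 libraries and did not pass the filter.

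**Figure D2:**
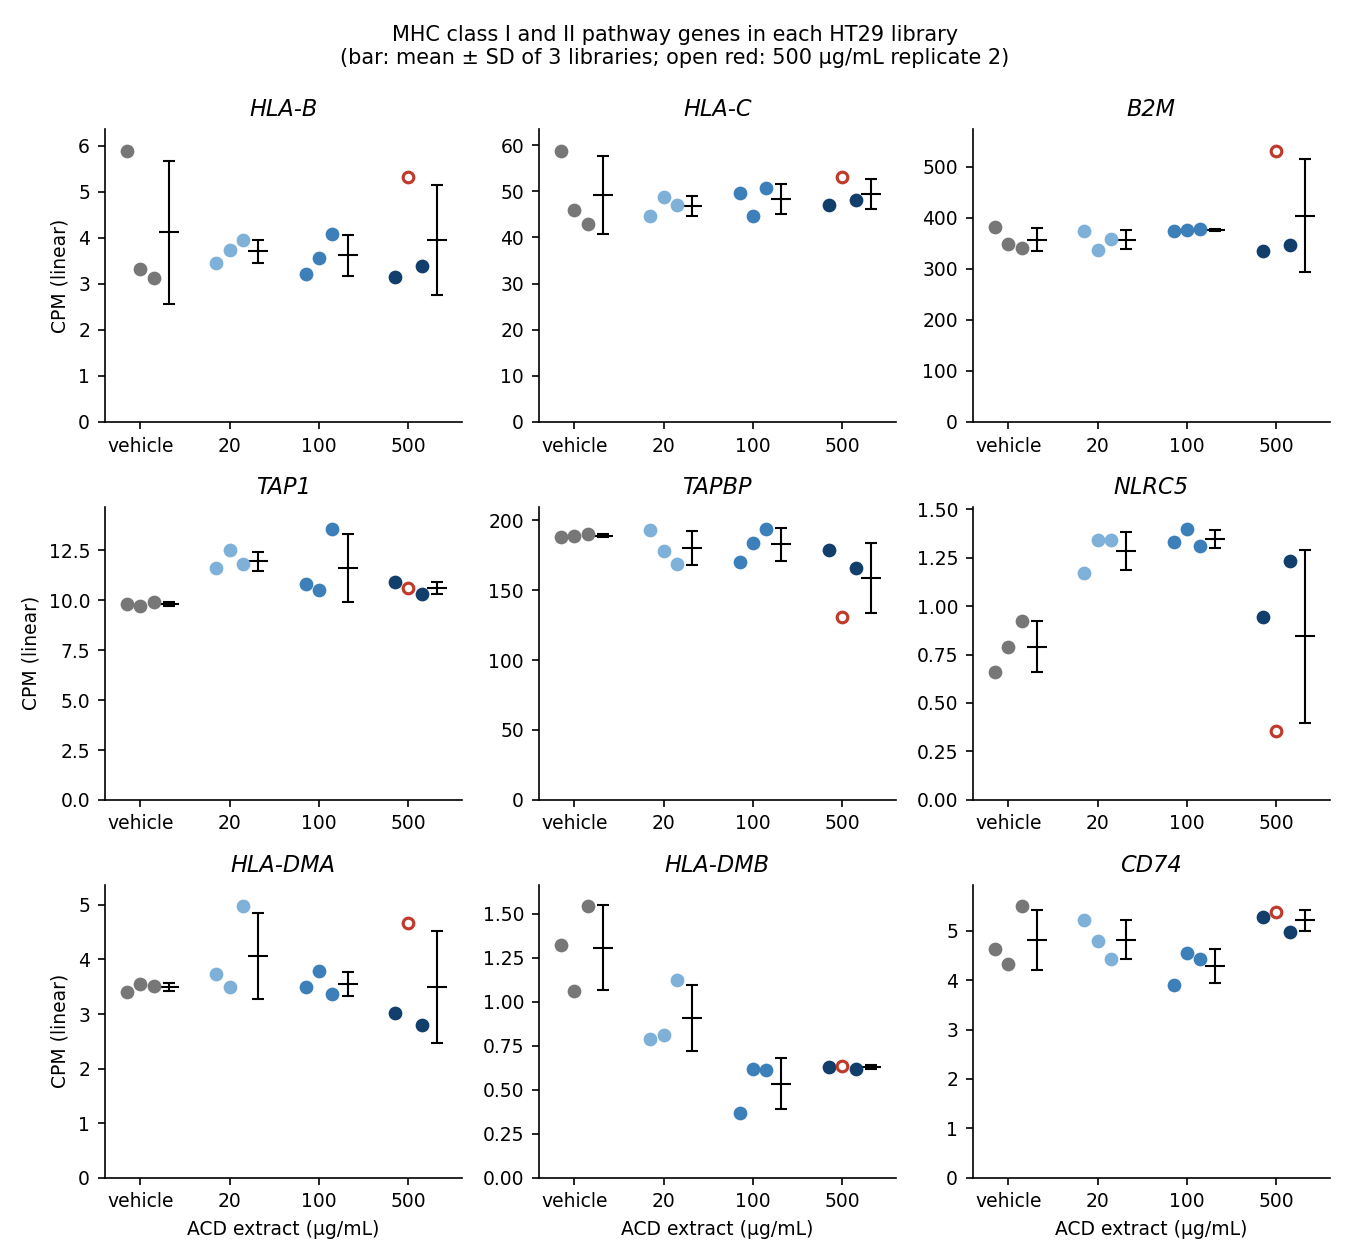
CPM of each of the 9 members (vertical axes, linear, from 0) in each library of the vehicle, 20, 100 and 500 µg/mL groups, with the mean ± SD of 3 libraries as a bar and high-dose replicate 2 as an open red circle. All medium- and high-dose libraries of HLA-DMB (0.367 to 0.637 CPM) sit below the vehicle libraries (1.06 to 1.54 CPM), and all low- and medium-dose libraries of NLRC5 (1.17 to 1.4 CPM) sit above the vehicle libraries (0.66 to 0.923 CPM).

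HLA-DMB, the beta chain of HLA-DM, had the largest difference of the 9. It stood at 1.32, 1.06 and 1.54 CPM in the vehicle libraries, 0.79, 0.81 and 1.12 CPM at the low dose, 0.367, 0.62 and 0.614 CPM at the medium dose and 0.63, 0.637 and 0.615 CPM at the high dose. All 6 medium- and high-dose libraries lay below every vehicle library, whereas low-dose replicate 3 lay within the vehicle range. The log2 fold change against vehicle was -0.52 (SE 0.24) at the low dose, -1.25 (SE 0.25) at the medium dose and -1.04 (SE 0.25) at the high dose, and between the high and the low dose it was -0.52 (SE 0.26). In folds, the medium dose held 0.421 and the high dose 0.486 of the vehicle level. These values rest on few reads, with 24 to 35 expected counts in a vehicle library and 7.69 to 20 in a medium- or high-dose library. Without high-dose replicate 2 the log2 fold change at the high dose was -1.05. HLA-DMB met the DEG threshold used below at the medium dose in 6 of 19 and at the high dose in 9 of 19 alternative analyses and its log2 fold change in them stayed between -1.39 and -0.89.

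HLA-DMA, the alpha chain of the same dimer, did not follow. It stood at 3.41, 3.55 and 3.52 CPM in the vehicle libraries, 3.74, 3.49 and 4.97 CPM at the low dose, 3.49, 3.79 and 3.36 CPM at the medium dose and 3.02, 4.67 and 2.80 CPM at the high dose. The groups overlapped at every dose. Its log2 fold change was 0.21 (SE 0.18), 0.02 (SE 0.19) and -0.05 (SE 0.19) at the low, medium and high dose, and -0.27 at the high dose without replicate 2. Per kb of transcript, HLA-DMB was 31.4, 24.3 and 35.5% of HLA-DMA in the vehicle libraries. The low-dose libraries had 17.1, 18.8 and 18.3%, the medium-dose libraries 8.54, 13.3 and 14.8% and the high-dose libraries 16.9, 11.1 and 17.8%. Every treated library lay below every vehicle library, and the 3 treated groups, at 18.1 ± 0.880, 12.2 ± 3.28 and 15.3 ± 3.68% (SD, n = 3 each), did not stand in the order of the doses. The 11.1% was in high-dose replicate 2, where HLA-DMA stood 0.68 higher on the log2 scale than the mean of replicates 1 and 3. The ratio of HLA-DMB to HLA-DMA was formed after both genes had been seen, and BRD2 reads on the opposite strand could enter the HLA-DMA values. BRD2 itself had a log2 fold change of 0.01 (SE 0.11) at the high dose.

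**Figure D3:**
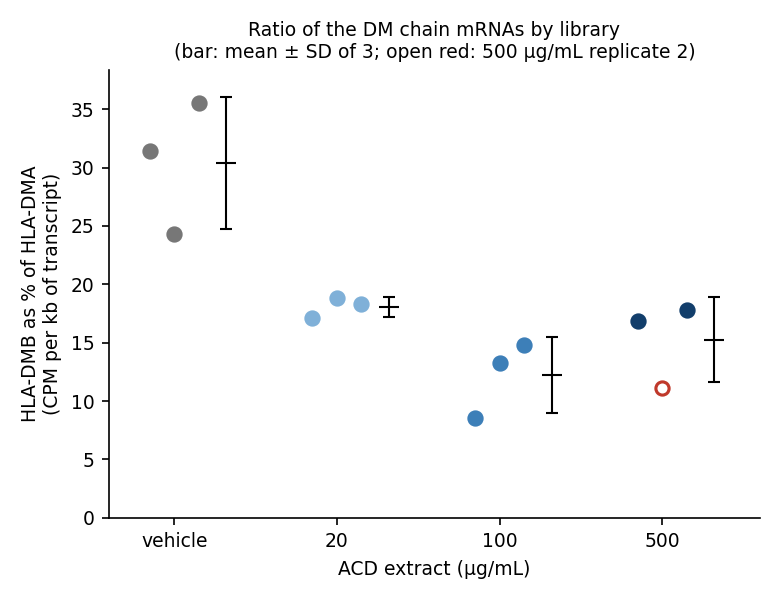
HLA-DMB as a percentage of HLA-DMA (vertical axis, CPM per kb of transcript) in each library of the 4 groups, with the mean ± SD of 3 libraries as a bar and high-dose replicate 2 as an open red circle. The vehicle libraries lie between 24.3 and 35.5%, and the 9 treated libraries between 8.54 and 18.8%.

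CD74 stayed near its vehicle level. It stood at 4.62, 4.33 and 5.49 CPM in the vehicle libraries, 5.22, 4.79 and 4.43 CPM at the low dose, 3.90, 4.54 and 4.42 CPM at the medium dose and 5.27, 5.38 and 4.98 CPM at the high dose. All groups overlapped, and the log2 fold changes were 0.01, -0.16 and 0.11 (SE 0.12 each) at the low, medium and high dose. Of the 3 class II pathway members, HLA-DMB alone had treated groups that did not overlap the vehicle libraries. Of all genes, 22.0% did not overlap at the high dose and 28.7% at the medium dose, so nothing is read from this count.

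NLRC5, the transactivator of the class I genes, was low and stood higher at the 2 lower doses. Its vehicle libraries had 0.66, 0.788 and 0.923 CPM, the low-dose libraries 1.17, 1.34 and 1.34 CPM, the medium-dose libraries 1.33, 1.4 and 1.31 CPM and the high-dose libraries 0.946, 0.354 and 1.23 CPM. No low- or medium-dose library overlapped the vehicle libraries, whereas the high-dose libraries lay on both sides of them. The log2 fold change was 0.68 (SE 0.29) at the low dose, 0.76 (SE 0.29) at the medium dose and 0.20 (SE 0.31) at the high dose. The lowest value was in high-dose replicate 2, where 5 reads were counted, and without it the high-dose value was 0.47. The counts were 12 to 26 in the vehicle libraries and 29 to 43 at the low and medium doses. NLRC5 met the DEG threshold only at the medium dose and only when high-dose replicate 2 was left out of the fit.

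TAP1, a subunit of the peptide transporter and a target of NLRC5, stood at 9.80, 9.73 and 9.93 CPM in the vehicle libraries. The low-dose libraries had 11.6, 12.5 and 11.8 CPM, the medium-dose libraries 10.8, 10.5 and 13.6 CPM and the high-dose libraries 10.9, 10.6 and 10.3 CPM. Every treated library was above every vehicle library, but by little, with log2 fold changes of 0.29, 0.24 and 0.11 (SE 0.10 each) from the low to the high dose. TAPBP, which bridges the transporter and the class I molecule, stood at 188, 189 and 190 CPM in the vehicle libraries, 193, 178 and 169 CPM at the low dose and 170, 184 and 194 CPM at the medium dose. At the high dose it had 179, 131 and 166 CPM, all below the vehicle libraries, with a log2 fold change of -0.25 (SE 0.10). High-dose replicate 2 held the lowest of these, and without it the value was -0.13. At the high dose the TAP1 and TAPBP values had opposite signs, both by less than 1.5-fold, and that of TAP1 was close to its SE. Of all genes, 22.0% did not overlap vehicle at this dose, so nothing is read from the opposite signs.

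The chains of the class I molecule differed little. B2M stood at 383, 349 and 341 CPM in the vehicle libraries, 375, 338 and 359 CPM at the low dose, 374, 377 and 379 CPM at the medium dose and 336, 532 and 346 CPM at the high dose. The mean of 404 ± 110 CPM at the high dose rested on replicate 2, and the log2 fold change was 0.18 (SE 0.14) with it and -0.07 without it. HLA-C stood at 58.8, 46.0 and 42.9 CPM in the vehicle libraries and between 44.6 and 53.0 CPM in the treated ones, with log2 fold changes of -0.07, -0.03 and 0.00 (SE 0.11 each). HLA-B stood at 5.89, 3.33 and 3.12 CPM in the vehicle libraries and between 3.15 and 5.31 CPM in the treated ones, with log2 fold changes of -0.13, -0.15 and -0.07 and SEs of 0.24 to 0.25. The highest HLA-B and HLA-C values were both in vehicle replicate 1, and without that library the HLA-B values turned to 0.19, 0.16 and 0.25. Without high-dose replicate 2 the HLA-B value at the high dose was -0.28. The groups of these 3 genes overlapped at every dose.

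The class I heavy chains are near-identical, and the authors' counting shares out their reads, so the levels of HLA-B and HLA-C are uncertain to that extent.

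**Figure D4:**
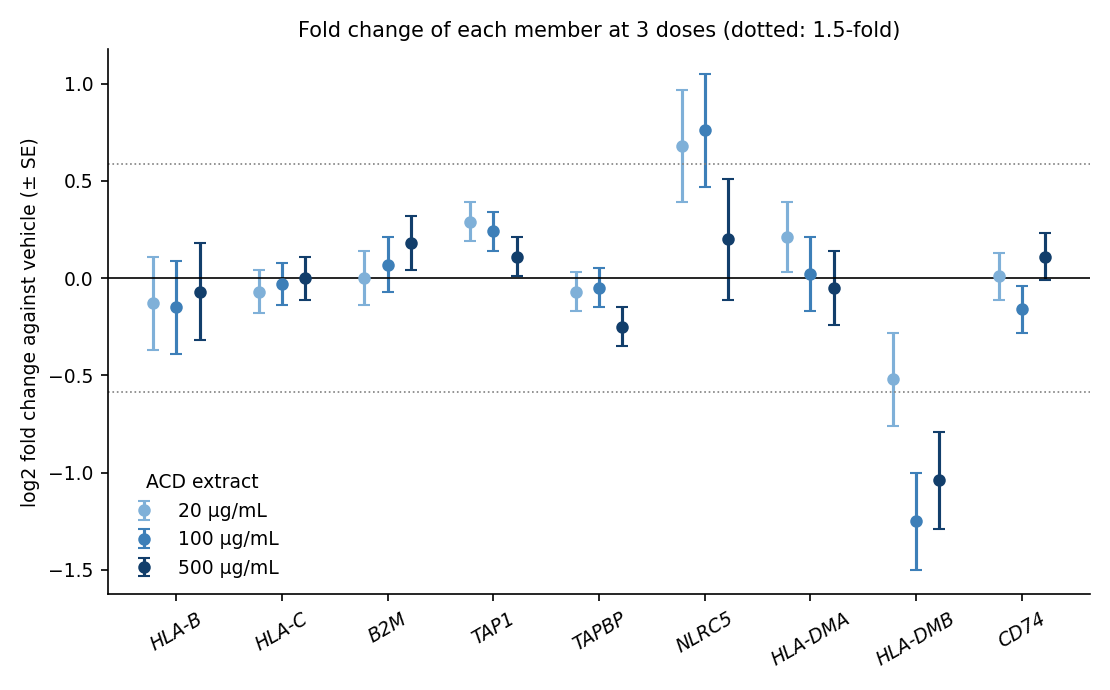
Log2 fold change against vehicle with its standard error (vertical axis) for each of the 9 members at 20, 100 and 500 µg/mL, with dotted lines at 1.5-fold. HLA-DMB lies below the lower line at 100 and 500 µg/mL (-1.25 and -1.04), NLRC5 above the upper line at 20 and 100 µg/mL (0.68 and 0.76), and the other 7 members lie between the lines at every dose.

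A gene was called a DEG (differentially expressed gene) where the quasi-likelihood test of edgeR gave an adjusted p below 0.05 and the fold exceeded 1.5. Of the 9 members, 1 met them at the high dose, where 2.93% of all genes did (1.26% higher and 1.68% lower), and 1 at the medium dose, where 0.676% did, HLA-DMB with a lower level each time. None did at the low dose (0.111% of all genes) or between the high and the low dose (1.58% of all genes, 0.748% higher and 0.833% lower). The libraries did not overlap between the groups for 3 members at the high dose (22.0% of all genes), 3 at the medium dose (28.7%), 2 at the low dose (21.0%) and 2 between high and low dose (20.2%). The median log2 fold change of the members was 0.00, -0.03 and 0.00 at the high, medium and low dose, where that of all genes was 0.00523, -0.00953 and -0.00141. Since these contrasts chose the members, nothing is read from these counts. The comparisons with vehicle share the vehicle libraries.

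The rest of the pathway was followed with a list of 89 further genes by role, of which 78 had a count and 68 passed the filter. This list, too, was chosen with earlier results of these data known, so its counts of DEGs are a description. At the high dose 4 of these were DEGs, all higher, and 0 were lower, where 2.93% of all genes were DEGs. At the medium and low doses 0 were DEGs by edgeR, with 7 genes at an unadjusted p under 0.05 at each dose and also 0 DEGs by DESeq2. Between the high and the low dose 2 were DEGs, both higher. Of all genes, 0.676% were DEGs at the medium dose, 0.111% at the low dose and 1.58% between the high and the low dose. The median log2 fold change of the 68 genes was 0.03, 0.02 and 0.02 at the high, medium and low dose. The p-values below are edgeR's, adjusted by Benjamini-Hochberg over the 15374 genes.

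**Figure D5:**
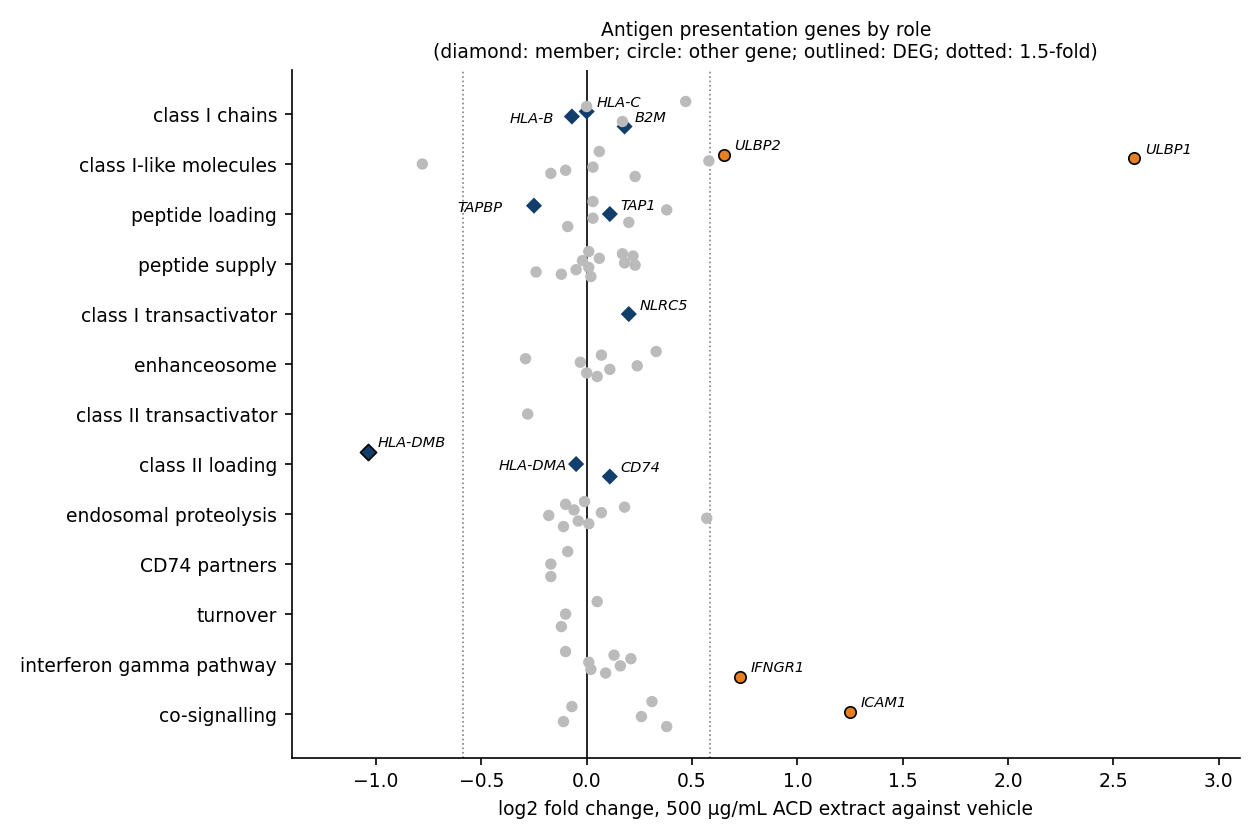
Log2 fold change at 500 µg/mL against vehicle (horizontal axis) of the tested antigen presentation genes, by role (vertical axis), with members as diamonds, other genes as circles, DEGs outlined and dotted lines at 1.5-fold. The 4 DEGs outside the members lie to the right, from ULBP2 at 0.65 to ULBP1 at 2.60, and HLA-DMB lies to the left at -1.04.

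The DEGs outside the members were ULBP1, ULBP2, ICAM1 and IFNGR1. ULBP1, a class I-like ligand of the NKG2D receptor of NK cells, stood at 0.275, 0.636 and 0.439 CPM in vehicle and at 3.33, 2.19 and 3.07 CPM at the high dose. It rose by 2.60 on the log2 scale (SE 0.31, adjusted p = 0.000346), and the groups did not overlap. Its medium- and low-dose libraries, at 0.367 to 0.718 CPM, lay near vehicle, and the high dose also stood above the low dose (log2 fold change 2.42, SE 0.30, adjusted p = 0.000665). ULBP2, of the same family, stood at 3.08, 3.21 and 3.30 CPM in vehicle and at 5.36, 4.74 and 4.95 CPM at the high dose (log2 fold change 0.65, SE 0.10, adjusted p = 0.00217). The ULBP genes are close relatives, so a part of their reads could be shared out between them. Of the other NKG2D ligands, MICB, named after its values were seen, had the lowest log2 fold change outside the members, -0.78 (SE 0.39, adjusted p = 0.295), and did not pass the test. It had only 5.01 to 14 counts in a library. MICA, the highest of these ligands at a mean of 18.9 CPM, had a log2 fold change of 0.03 (SE 0.10, adjusted p = 0.907) at the high dose. ULBP3 had one of 0.06 (SE 0.16, adjusted p = 0.889).

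ICAM1, the adhesion ligand of LFA-1 on T cells, stood at 3.63, 5.03 and 4.92 CPM in vehicle, 6.0 to 6.49 CPM at the low dose, 6.26 to 7.25 CPM at the medium dose and 11.4, 10.4 and 10.9 CPM at the high dose. It rose by 1.25 on the log2 scale at the high dose (SE 0.12, adjusted p = 6.96e-05). The low and medium doses, at 0.45 and 0.53 (SE 0.12 each), did not pass the test (adjusted p = 0.277 and 0.0689), although none of their libraries overlapped vehicle. IFNGR1, a chain of the interferon gamma receptor, stood at 59.9, 59.0 and 61.5 CPM in vehicle and at 81.4, 141 and 77.5 CPM at the high dose (log2 fold change 0.73, SE 0.18, adjusted p = 0.0313). Without high-dose replicate 2 the value was 0.40 (adjusted p = 0.000168). This passed the p threshold but not the fold threshold, and the gene was no DEG. The medium-dose libraries of IFNGR1, at 74.8, 73.3 and 72.6 CPM, also lay above vehicle (log2 fold change 0.29, SE 0.17, adjusted p = 0.575).

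Peptide loading and supply gave no DEG, where 2.93% of all genes were DEGs at the high dose. TAP2, the partner of TAP1, stood at 52.9, 52.6 and 53.6 CPM in vehicle and at 69.6, 66.0 and 71.4 CPM at the high dose, and passed the p threshold but not the fold threshold at the high dose (log2 fold change 0.38, SE 0.07, adjusted p = 0.00781) and at the medium dose (0.36, SE 0.07, adjusted p = 0.0315). It lies within 100000 bases of HLA-DMB, and of the 8 tested genes in that window 0 were DEGs at the high or medium dose. At these doses 2.93% and 0.676% of all genes were DEGs, so 8 genes would seldom hold any and nothing is read from the 0. CANX, the chaperone calnexin and the highest of the loading genes in CPM not divided by length, had a log2 fold change of 0.20 (SE 0.07, adjusted p = 0.140) at the high dose, and PSME3, a proteasome activator subunit, one of 0.22 (SE 0.07, adjusted p = 0.0762). The 12 genes of peptide supply had log2 fold changes with a median of 0.02 at the high dose.

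The regulators CIITA and IRF1 did not pass the test either. CIITA, the class II transactivator, stood at 2.04, 1.64 and 1.67 CPM in vehicle and at 1.40, 1.49 and 1.48 CPM at the high dose (log2 fold change -0.28, SE 0.21, adjusted p = 0.513). IRF1, the interferon-induced factor that acts on NLRC5 and CIITA, stood at 31.6 to 34 CPM in vehicle and had a log2 fold change of 0.02 (SE 0.09, adjusted p = 0.950) at the high dose. IFNG itself had no count in any library. The 8 genes of the promoter-bound complex, of which NFYC was the highest in CPM, gave 0 DEGs at any dose. Of all genes, 2.93%, 0.676% and 0.111% were DEGs at the high, medium and low dose, so nothing is read from the 0. Of the 8, 6 had a log2 fold change above 0 at the high dose. RFX5, named after its values were seen, had one of -0.29 (SE 0.09, adjusted p = 0.102). Between the high and the low dose its value was -0.46 (SE 0.09, adjusted p = 0.0199), under the fold threshold.

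On the class II side, CTSD, an endosomal protease and the highest of its role in CPM, at 690 ± 43.9 CPM in vehicle (SD, n = 3), had a log2 fold change of 0.01 (SE 0.08, adjusted p = 0.954) at the high dose. CD44, the signalling partner of CD74, had one of -0.17 (SE 0.07, adjusted p = 0.182). MARCHF8, a ligase that removes class II molecules from the surface, had one of -0.10 (SE 0.12, adjusted p = 0.714). Among class I-like and co-signalling molecules, FCGRT, the neonatal Fc receptor, had one of -0.17 (SE 0.10, adjusted p = 0.357) and CD276, of the B7 family, one of -0.11 (SE 0.09, adjusted p = 0.572).

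The genes whose log2 CPM over the 12 libraries was most like the mean of the 6 class I members were ENSG00000264635 (Pearson r 0.92), IFI6, an interferon-induced gene (0.91), and GEMIN8P4 (0.89). For the mean of HLA-DMA, HLA-DMB and CD74 they were ASB8 (0.90), S1PR2 (0.89) and POLR3GL (0.87). These are the highest of all tested genes outside the list, and the points share the library effects, transcript length among them. Neither mean stands for a profile common to its members. Among the class I members, r was 0.85 for HLA-B and HLA-C, but -0.74 for B2M and TAPBP and -0.71 for B2M and NLRC5. Without high-dose replicate 2 these were 0.84, 0.31 and 0.08. For HLA-DMA, r was 0.20 with HLA-DMB and -0.05 with CD74.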

How the data were processed

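The libraries were made with a directional mRNA kit from total RNA and read as paired ends. Per the labels and the paper's methods, the authors ran Trim Galore, STAR on GRCh38 and RSEM 1.3.3 with the Ensembl 84 annotation. The table they deposited holds RSEM's expected counts without normalization. Here these were rounded to whole numbers, filtered with filterByExpr and fitted in edgeR 4.0.16 (R 4.3.3) with TMM scaling and the quasi-likelihood test, with the 4 groups of 12 libraries in 1 fit (common dispersion 0.0126). Standard errors came from the F statistic. CPM used TMM-scaled library sizes, log2 CPM a prior count of 2. No 2 libraries were duplicates. Symbols, positions and transcript lengths came from GENCODE 44, in which 93.2% of the IDs were found. The script was tested on simulated data. The members, the pathway list and the alternatives, which include DESeq2 1.42.0, were chosen with earlier results of these data known. Named genes were the members, other DEGs of the list, CIITA, IRF1 and some genes not reported here, the highest gene of each role and marker list, and the 3 most alike genes. The intervals and floors cover counting error only.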

Additional observations from a re-analysis of the deposited data

How the results depend on the processing

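Counts were recomputed under 21 alternatives and fold changes under those of them that gave a value, 19 or 20. At the high dose, the 4 DEGs outside the members became 2 with edgeR on the 2 groups alone (ICAM1 and ULBP1) and ranged from 2 to 6 over all alternatives. At the medium dose, 0 became 2 with no minimum fold change (CXCR4 and TAP2). Between the high and the low dose, 2 became 5 with no minimum fold change and 1 with at least 10 counts in every library (ICAM1, ULBP1 being filtered out there). At the low dose the count was 0 under all 21. Same-numbered libraries did not deviate together: 5 of 18 pairs had a correlation above 0.1 (range -0.495 to 0.372) and 4 of 12 libraries correlated best with their own number. With a replicate block the counts were 3, 0, 0 and 2 at the high, medium and low dose and between high and low dose, IFNGR1 being lost (adjusted p = 0.0626), and HLA-DMB met the threshold at the high dose but not at the medium dose. IFNGR1 was a DEG at the high dose in 9 of 20 alternatives, and not without vehicle replicate 1, 2 or 3, low-dose replicate 1, medium-dose replicate 1, 2 or 3 or high-dose replicate 2 (0.40 in log2), whereas ULBP2 was one in 19 of 20. HLA-DMB no longer met the threshold at the high dose without vehicle replicate 1 or 3, low-dose replicate 2, medium-dose replicate 3 or high-dose replicate 1 or 3, and at the medium dose without any 1 library other than low-dose replicate 3 or high-dose replicate 2. Of 712 member values, 707 moved by less than 1 SD between libraries and 5 by more, all under an offset for transcript length that was chosen after seeing the data. Leaving out 1 of 3 libraries could hardly move a mean by 1 SD, so this count does not measure stability. At the high dose the log2 fold change of HLA-B ran from -0.28 to 0.25 over the alternatives and that of B2M from -0.07 to 0.29. The NLRC5, HLA-DMB and ULBP1 values rest on few reads, and their depth limits what could be detected.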
